A study of Homo sapiens with 12 samples.

Results

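K562 cells kept for 3 days in megakaryocyte differentiation medium (MK medium) were compared with K562 cells kept in growth medium, both after transfection with a negative control siRNA (siNC). The comparison rests on 6 of the 12 libraries of the study, the 3 growth medium and the 3 MK medium libraries that carry siNC, taken by their titles. The other 6 libraries received siRNA against RHOB in the same media and served as a repeat of the medium comparison. All cells were labelled wild type, so the groups set against each other share cell line, siNC and days in culture and differ by medium. The labels do not state what the MK medium contains. Nothing in them tells whether the replicates came from separate cultures. The p-values thus measure only the spread between these libraries, which may be technical.

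K562 is an established cell line from a human chronic myeloid leukaemia and carries the BCR-ABL1 fusion kinase. It grows as blast-like cells and can be pushed towards erythroid or megakaryocyte features. Megakaryocytes are the large marrow cells that shed platelets. Maturing ones leave the division cycle, enlarge, build internal membranes and fill granules with growth factors, protease inhibitors and adhesive proteins. The genes described here lie beyond the lineage, cell cycle and cytoskeleton lists and cover metabolism, cell growth machinery, signalling, surface proteins, secreted factors and chromatin.

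Library totals lay between 34412558 and 54048161 reads assigned to genes in the 6 siNC libraries. Reads were found for 14242 to 14846 genes in growth medium and for 15498 to 16035 in MK medium. Replicate 3 stood apart in both media. Across genes within a group, log2 levels of replicates 1 and 2 correlated at 0.993 in growth medium and 0.991 in MK medium. Pairs that held replicate 3 correlated at 0.981 to 0.982 and 0.958 to 0.959. Fitted changes of named genes from replicates 1 and 2 alone are therefore given in brackets wherever they differ from the printed change by more than 1.5-fold. A fold given as a ratio or a lower bound is likewise repeated without MK replicate 3. The fitted change moved that far in 93 of the 529 named genes that passed the test, and in 67 of these it was nearer to 0 without replicate 3. List counts are given again where the replicate block or leaving out a library moved them by more than 1.5 times, unless both counts were under 4. List counts from replicates 1 and 2 alone are given for some lists only, so their absence does not mean agreement.

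Marker lists of other cells were read as well, and their part in the results was not tested. Changes of these markers are given without values from replicates 1 and 2 alone, so a missing bracket does not mean agreement. Of 14 tested monocyte and granulocyte markers, 8 were called higher and 0 lower, and their summed level, over all 24 markers, was 33.6, 35.4 and 87.0 CPM in growth medium and 74.1, 75.2 and 166.7 CPM in MK medium. There were 5 risers without growth replicate 1. The integrin gene ITGAX stood at 0, 0.0582 and 0.565 CPM in growth medium and 5.35, 5.88 and 76.9 CPM in MK medium, a change of 7.12 ± 1.71. MPO, myeloperoxidase, changed by 7.88 ± 1.14 and the receptor gene CSF1R by 7.33 ± 1.08, to 16.6 and 7.75 CPM in MK replicate 3, their highest library. Among the other called markers, CEBPE, FCGR1A, FCGR3A and VCAN did not exceed 2.94 CPM. LYZ, lysozyme, stood at 28.6, 28.7 and 73.7 CPM in growth medium and 51.6, 52.3 and 45.2 CPM in MK medium and did not pass the test. S100A9 was not tested for low reads and reached 3.26 CPM in MK replicate 3, and the defining markers FCN1, MS4A7, S100A8 and S100A12 had 0 reads in all 6 libraries.

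Of 10 tested T, NK and B lymphocyte markers, 5 were called higher and 2 lower, and all markers summed to 14.8, 16.04 and 19.0 CPM in growth medium and 43.8, 49.0 and 43.1 CPM in MK medium. There were 3 risers without MK replicate 2. CD3D, a T cell receptor subunit, stood at 5.23, 4.89 and 5.94 CPM in growth medium and 33.1, 38.6 and 30.7 CPM in MK medium, a change of 2.67 ± 0.20. CD3G, CD4, CD5 and PAX5 were also called higher and did not exceed 2.06 CPM, while CD22 changed by -0.38 ± 0.15. CD8A, CD28 and MS4A1 had 0 reads throughout. Of 11 tested fibroblast, epithelial and endothelial markers, 7 were called higher and 1 lower. They summed to 1011 to 1123 CPM in growth medium and 6107 to 7656 CPM in MK medium, most of it from the keratin genes KRT8 and KRT18, which changed by 2.99 ± 0.15 and 2.98 ± 0.16. The collagen gene COL1A1 stood at 0.459, 0.815 and 6.76 CPM in growth medium and 99.3, 93.8 and 251 CPM in MK medium, a change of 5.79 ± 1.06. COL1A2, its partner chain, changed by 2.81 ± 0.74, with 21.4 CPM in MK replicate 3, its lowest MK library. PDGFRB stood at 0.332, 0.194 and 0.271 CPM in growth medium and 4.65, 3.92 and 12.8 CPM in MK medium, a change of 4.74 ± 0.76. DCN changed by 1.998 ± 0.74 and PECAM1, also a platelet protein, by 1.25 ± 0.28. EPCAM, an epithelial adhesion protein, changed by -1.57 ± 0.14, and CDH1, KRT5 and EMCN had 0 reads. Of 15 tested genes that mark K562 itself, 6 rose and 4 fell, and CDKN2A, which K562 lacks, had 0 reads. There were 3 risers without MK replicate 1, and 2 fallers without growth replicate 2 and 2 without MK replicate 3. In such bulk libraries, fewer cells of a type and less RNA per cell cannot be told apart.

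Most measured genes differed between the media. Of 14026 genes tested with edgeR's quasi-likelihood test, without pairing by replicate number, 8256 (58.9%) passed a Benjamini-Hochberg adjusted p of 0.05. Of the tested genes, 4278 (30.5%) were higher and 3978 (28.4%) lower in MK medium. Large changes were mostly rises. More than 2-fold rises were found for 2668 genes (19.0%) and more than 2-fold falls for 878 genes (6.26%). Without replicate 3 in either medium, 2528 of these risers and 860 of these fallers were called the same way. The median log2 difference over all tested genes was 0.06. Levels are given below as CPM, the read count scaled to library size with TMM, in replicates 1, 2 and 3, in that order, and changes as log2 of MK over growth medium ± SE from the fit on 3 libraries a group. Genes described as risen, fallen or changed passed the test unless said otherwise. Genes named for the size of their change had to show no overlap between the libraries of the media, and 65.8% of all tested genes showed none.

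Genes on 79 lists were grouped into 6 classes. Secreted factors leaned furthest towards higher levels, with 159 of 250 tested genes (63.6%) higher and 19 (7.6%) lower and a median log2 difference of 1.93. Only 250 of 442 secreted genes had enough reads to be tested, against 350 of 382 genes of housekeeping machinery. Genes with next to no reads in growth medium were tested through their reads in MK medium and could hardly be called lower. The share and the median of secreted factors thus depend in part on this filter, and by how much is not given here. Signalling genes had 250 of 535 (46.7%) higher and 83 (15.5%) lower. Surface proteins had 337 of 764 (44.1%) higher and 116 (15.2%) lower. Chromatin genes were near the background of all genes, with 211 of 853 (24.7%) higher and 240 (28.1%) lower. Metabolic genes had 99 of 489 (20.2%) higher and 181 (37.0%) lower. Housekeeping machinery leaned furthest towards lower levels, with 83 of 350 (23.7%) higher and 168 (48.0%) lower. Of the 8256 called genes, 6124 were on none of the lists.

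**Figure D1:**
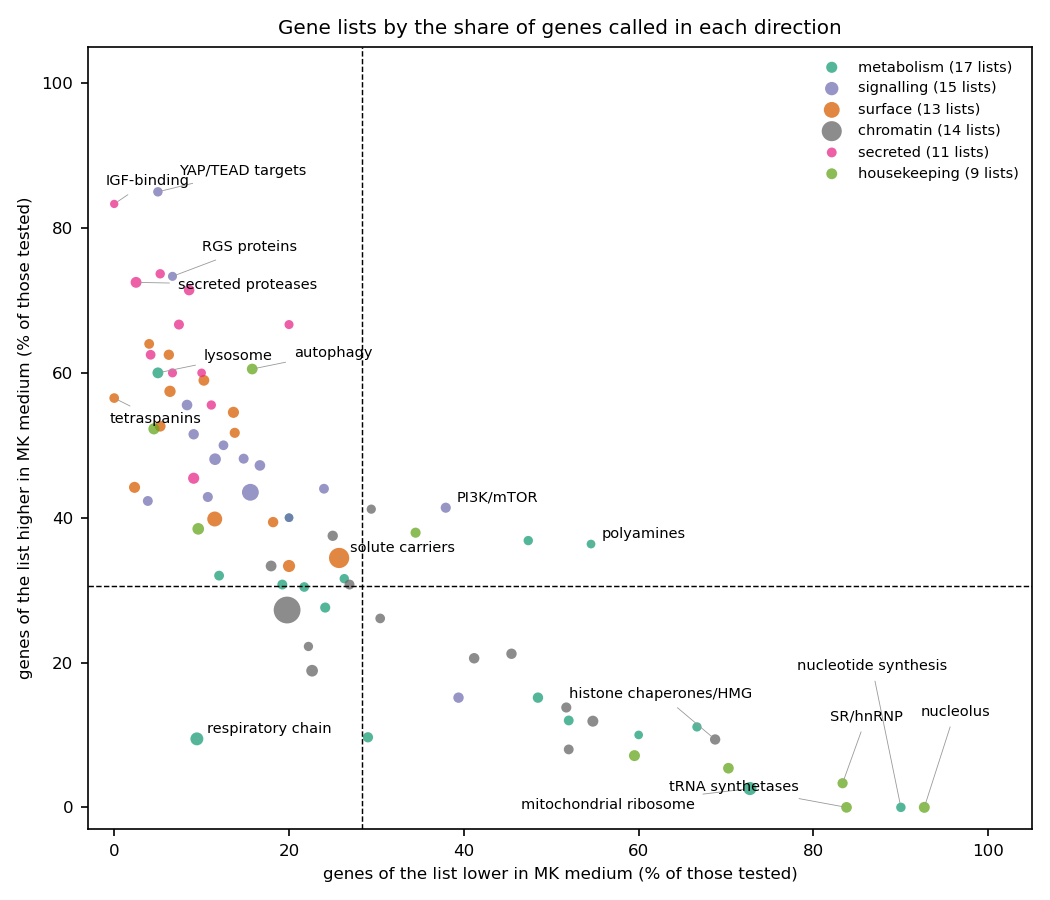
Each point is a gene list, placed by the share of its tested genes that were lower (horizontal axis, %) and higher (vertical axis, %) in MK medium, with point area growing with list size and dashed lines at the shares over all tested genes, 28.4% and 30.5%. Nucleolar, nucleotide synthesis, tRNA synthetase and splicing lists sit at the lower right, and secreted, YAP/TEAD and RGS lists at the upper left.

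The largest rises were of genes with next to no reads in growth medium. INHBA, which encodes the beta A subunit of activin, stood at 0, 0 and 0.0452 CPM in growth medium and 111, 134.5 and 761 CPM in MK medium. Over the groups this was 23130-fold (95% interval 6402 to 191000, and 8268-fold, 2288 to 68280, without MK replicate 3). This interval and the later ones of such folds cover counting error only, not the spread between libraries. STC1, which encodes the secreted glycoprotein stanniocalcin 1, stood at 0.0510, 0.0388 and 0.791 CPM in growth medium and 676, 765 and 2453 CPM in MK medium. Its change was 12.11 ± 1.05 (13.89 from replicates 1 and 2 alone) (adjusted p = 8.4e-06). A2M, which encodes the broad protease inhibitor alpha-2-macroglobulin, stood at 0.0255, 0.0388 and 0.0452 CPM in growth medium and 96.0, 93.8 and 144 CPM in MK medium, or 3023-fold (95% interval 1295 to 9311). In these 3 genes every MK library lay far above every growth library, where the rule for naming genes required no overlap, and the third MK library was the highest.

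Other large rises started from 0 reads in growth medium, so that only a lower bound can be given, taken against 3 reads over the group. GZMB, which encodes the protease granzyme B, stood at 60.6, 71.2 and 179 CPM in MK medium, at least 4716-fold higher (or 2964-fold without MK replicate 3). ARNT2, which encodes a helix-loop-helix partner of PAS domain factors, reached 22.3, 26.8 and 126 CPM, at least 2672-fold higher (or 1103-fold without MK replicate 3). DCLK1, which encodes a kinase that binds microtubules, reached 8.25, 10.03 and 103 CPM, at least 1873-fold higher (or 411-fold without MK replicate 3) (adjusted p = 0.0055). The third MK library was the highest for all of them. PLAC4, a transcript known from placenta, showed 6.19, 7.90 and 188 CPM and was at least 3129-fold higher (or 316-fold without MK replicate 3). CCL3, which encodes a chemokine and has a near-identical copy in CCL3L1 that leaves its count uncertain, showed 6.74, 4.66 and 199.6 CPM and was at least 3267-fold higher (or 257-fold without MK replicate 3). DCSTAMP, which encodes a membrane protein needed for osteoclast fusion, stood at 0, 0 and 0.0452 CPM in growth medium and 11.7, 13.7 and 97.7 CPM in MK medium, or 2836-fold (95% interval 785 to 23430, and 856-fold, 236 to 7075, without MK replicate 3).

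For 3 further large rises the call itself was lost when the third MK library alone was left out. TNFSF15, which encodes the TNF family ligand TL1A, had 0 reads in growth medium and 4.01, 4.604 and 272 CPM in MK medium (adjusted p = 0.038). Its adjusted p was 0.07 to 0.084 when any of the growth libraries or MK replicate 3 was left out. CGA, which encodes the alpha subunit shared by glycoprotein hormones, went from 0, 0 and 0.0452 CPM to 1.84, 1.53 and 176 CPM (adjusted p = 0.03), with adjusted p of 0.085 to 0.14 under the same omissions. IL1B, which encodes the inflammatory cytokine interleukin 1 beta, went from 0, 0 and 0.0678 CPM to 2.40, 2.02 and 205 CPM (adjusted p = 0.012). Without growth replicate 3 or MK replicate 3 its adjusted p was 0.051 to 0.065. With replicates 1 and 2 alone, edgeR gave adjusted p of 3.45e-07 for TNFSF15, 6.3e-06 for CGA and 3.0e-07 for IL1B. With the replicate block these were 2.3e-04, 2.9e-08 and 3.5e-08. In TNFSF15, CGA and IL1B, MK replicates 1 and 2 were above all growth libraries, as the rule for naming genes required, but far below MK replicate 3.

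Several genes were named for the size of their fall. TERT, which encodes the catalytic subunit of telomerase, stood at 9.21, 8.85 and 7.84 CPM in growth medium and 0.307, 0.711 and 0.187 CPM in MK medium. This was a change of -4.42 ± 0.49 (adjusted p = 2.5e-05). MS4A3, a membrane protein of granulocyte and monocyte progenitors, changed by -4.17 ± 0.89, and NMU, which encodes the neuropeptide neuromedin U, by -3.79 ± 0.16.

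PKLR, which encodes the pyruvate kinase of liver and red cells, stood at 202, 213 and 113 CPM in growth medium and 14.7, 16.2 and 2.24 CPM in MK medium, a change of -3.995 ± 0.71. NEFH, which encodes the heavy neurofilament chain, stood at 69.3, 73.6 and 93.3 CPM in growth medium and 7.38, 8.16 and 5.31 CPM in MK medium, a change of -3.50 ± 0.22. FUT1, the fucosyltransferase that makes the H antigen, stood at 22.5, 21.5 and 6.78 CPM in growth medium and 2.15, 1.71 and 2.24 CPM in MK medium, a change of -3.06 ± 0.54. All MK libraries lay below all growth libraries for each of them, as the rule for naming genes required. The transcription factor genes NFIB and POU3F2 changed by -3.23 ± 0.33 and -3.16 ± 0.52. MYO16, which encodes an unconventional myosin, changed by -3.38 ± 0.44, and HTR1F, which encodes a serotonin receptor, by -3.29 ± 0.26. FAM178B went from 124, 159 and 30.8 CPM to 13.3, 14.7 and 5.10 CPM, a change of -3.25 ± 0.76.

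Genes of glucose use moved in both directions. Of 26 tested genes of glucose uptake, glycolysis and lactate, 8 rose (30.8%, against 30.5% of all tested genes) and 5 fell (19.2%, against 28.4%). With the replicate number as a block, 11 rose and 8 fell. With replicates 1 and 2 alone, 10 rose and 12 fell. There were 3 fallers without growth replicate 1. PFKFB2, which makes the fructose bisphosphate that stimulates phosphofructokinase, stood at 87.1, 82.1 and 102 CPM in growth medium and 313, 319 and 289 CPM in MK medium. Its change was 1.76 ± 0.12 (adjusted p = 7.4e-07). SLC2A3, which encodes the high-affinity glucose transporter GLUT3, stood at 329, 287 and 159 CPM in growth medium and 685, 728 and 869.5 CPM in MK medium, a change of 1.56 ± 0.27. The other main transporter gene, SLC2A1, changed by 0.58 ± 0.11. Per length, SLC2A3 was at 63.5 ± 19.6 FPKM (mean ± SD, n = 3) in growth medium and at 197 ± 23.3 FPKM in MK medium.

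Enzyme pairs of glycolysis moved unequally. ENO2, the enolase named for neurons, stood at 47.2, 48.2 and 48.3 CPM in growth medium and 115, 118 and 114 CPM in MK medium, a change of 1.27 ± 0.07, while the ubiquitous ENO1 did not pass the test (log2 -0.26 ± 0.17, adjusted p = 0.20, or 0.0063 with the replicate block). LDHB, the lactate dehydrogenase subunit of heart muscle, stood at 852, 792 and 862 CPM in growth medium and 469, 462 and 327 CPM in MK medium, a change of -0.99 ± 0.13. LDHA, the subunit of skeletal muscle, did not pass (log2 -0.45 ± 0.36, adjusted p = 0.30, or 0.025 with the replicate block), and its growth libraries spread over 2748, 2564 and 1140 CPM. The hexokinase gene HK1 did not pass either (log2 -0.08 ± 0.17), and HK2 was lower by the fit (log2 -0.94 ± 0.28), with an adjusted p of 0.055 without growth replicate 1. PDK2, a kinase that shuts down pyruvate dehydrogenase, stood at 0.510, 0.369 and 1.72 CPM in growth medium and 6.72, 8.70 and 14.1 CPM in MK medium, a change of 3.51 ± 0.67 (4.14 from replicates 1 and 2 alone), and PDK1 did not pass (log2 0.31 ± 0.41). In growth medium, replicate 3 was the lowest library for LDHA, ALDOC, PDK1 and SLC2A3.

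**Figure D2:**
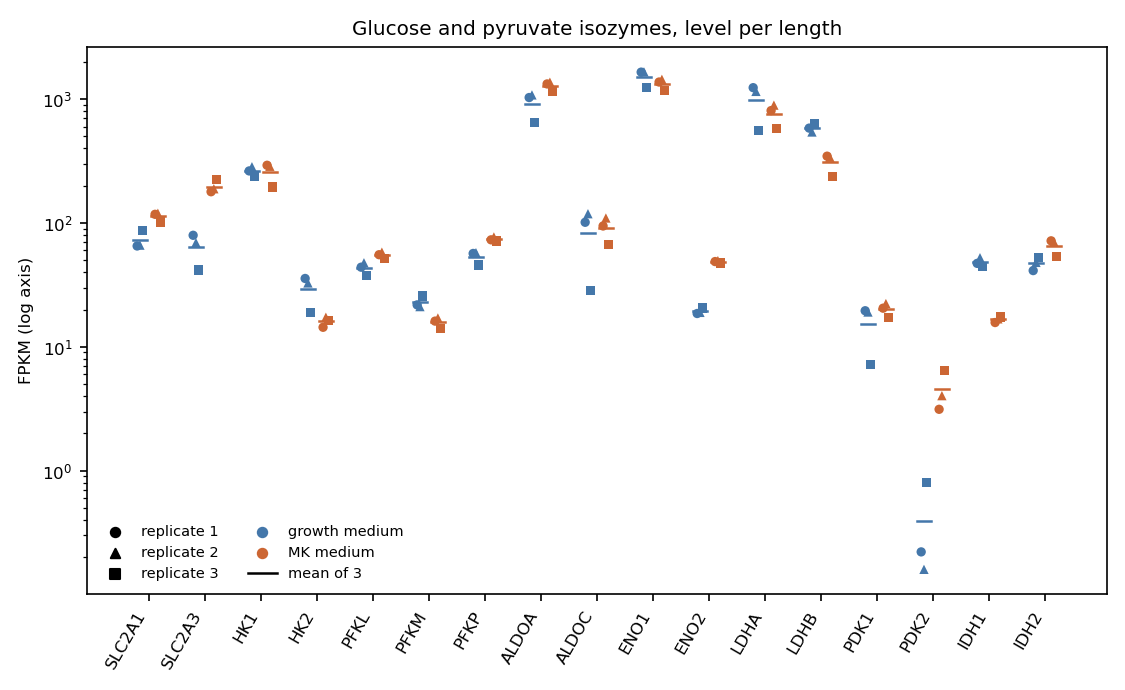
FPKM on a log axis for genes of glucose uptake and pyruvate use in the 3 growth medium (blue) and 3 MK medium (orange) libraries, with a mark for each replicate and a bar at the mean. SLC2A3, ENO2 and PDK2 lie higher in MK medium with no overlap, LDHB and IDH1 lie lower, and growth replicate 3 sits below its group for LDHA, ALDOC and PDK1.

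Mitochondrial genes split by role. Of 77 tested mitochondrial ribosomal protein genes, 2 rose and 56 fell, with a median log2 difference of -0.59. MRPL23, a protein of the large subunit, stood at 42.4, 40.3 and 45.02 CPM in growth medium and 16.4, 17.6 and 19.2 CPM in MK medium, a change of -1.26 ± 0.10, and MRPS26, of the small subunit, changed by -1.32 ± 0.13. Nuclear-encoded subunits of the respiratory chain did not move as a group, with 7 of 74 higher and 7 lower. With replicates 1 and 2 alone, 29 rose and 11 fell. A fit with a replicate block gave 11 higher and 14 lower. There were 14 risers without MK replicate 3, and 4 fallers without MK replicate 3. The median difference over these subunits was 0.12 in replicate pair 1, 0.19 in pair 2 and -0.31 in pair 3. NDUFA4, a cytochrome oxidase subunit, stood at 124, 111 and 133 CPM in growth medium and 228, 225 and 166 CPM in MK medium, a change of 0.75 ± 0.15. SDHA, the flavoprotein of succinate dehydrogenase, changed by 0.57 ± 0.12.

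The citric acid cycle list had 3 of 31 genes higher and 9 lower. Blocked by replicate number, the counts were 7 higher and 16 lower. There were 5 risers without MK replicate 3. CS, which encodes citrate synthase, stood at 485, 504 and 426 CPM in growth medium and 293, 284 and 193 CPM in MK medium, a change of -0.88 ± 0.15. PC, which encodes the pyruvate carboxylase that refills the cycle, stood at 32.9, 34.5 and 36.1 CPM in growth medium and 15.7, 14.4 and 9.19 CPM in MK medium, a change of -1.40 ± 0.22. The MK libraries of both genes lay below the growth libraries, as the rule for naming genes required. IDH1, the cytosolic NADP-dependent isocitrate dehydrogenase, stood at 118, 131 and 103 CPM in growth medium and 36.5, 39.2 and 41.1 CPM in MK medium and changed by -1.59 ± 0.09. Its mitochondrial partner IDH2 was called higher (log2 0.40 ± 0.13), with adjusted p of 0.077 to 0.087 when growth replicate 1, MK replicate 1 or MK replicate 2 was left out. Per length, IDH1 went from 48.1 ± 3.99 FPKM to 16.7 ± 0.881 FPKM and IDH2 from 47.4 ± 5.85 FPKM to 65.2 ± 10.1 FPKM (mean ± SD, n = 3).

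Routes that supply building blocks for nucleic acids fell nearly throughout. Of 20 tested genes of purine and pyrimidine synthesis, 0 rose and 18 fell, with a median of -0.86. PFAS, an enzyme of the purine ring pathway, stood at 152, 157 and 142 CPM in growth medium and 45.3, 49.9 and 35.6 CPM in MK medium, a change of -1.78 ± 0.14 (adjusted p = 2.1e-06). PAICS, which acts in the same pathway, stood at 938, 914 and 787 CPM in growth medium and 315, 308 and 202 CPM in MK medium, a change of -1.68 ± 0.18. ATIC, which closes the purine ring, changed by -1.45 ± 0.13, and DHODH, the mitochondrial enzyme of pyrimidine synthesis, by -1.33 ± 0.19. In the pentose phosphate list, 1 of 10 rose and 6 fell. RPIA, which makes ribose phosphate, stood at 50.8, 43.8 and 47.2 CPM in growth medium and 14.8, 17.5 and 8.47 CPM in MK medium, a change of -1.80 ± 0.25, and the transketolase gene TKT changed by -1.11 ± 0.15.

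One-carbon and amino acid genes mostly fell as well. Serine and one-carbon genes had 2 of 18 higher and 12 lower. MTHFD1L, a mitochondrial folate enzyme, stood at 115, 112 and 102 CPM in growth medium and 31.97, 32.7 and 25.7 CPM in MK medium, a change of -1.87 ± 0.11. GCSH, a carrier protein of the glycine cleavage system, changed by -2.04 ± 0.12. SLC19A1, which carries reduced folate into the cell, stood at 55.4, 62.8 and 72.6 CPM in growth medium and 16.02, 17.5 and 13.2 CPM in MK medium and changed by -2.03 ± 0.14. Of 25 genes of amino acid interconversion and breakdown, 3 rose and 13 fell. The replicate block made this 6 higher and 15 lower. There were 5 risers without MK replicate 3. GLUL, glutamine synthetase, stood at 1562, 1560 and 1236 CPM in growth medium and 599, 626 and 593 CPM in MK medium, a change of -1.26 ± 0.09. CBS, of the transsulfuration route, changed by -1.72 ± 0.15 and OAT, ornithine aminotransferase, by -1.60 ± 0.15. Rises came from ARG2, the mitochondrial arginase, at 1.44 ± 0.30, and from KYNU, kynureninase, at 1.71 ± 0.44. In the polyamine list 4 of 11 rose and 6 fell. There were 2 risers without growth replicate 1, 2 without growth replicate 2 and 1 without MK replicate 3. The synthesis genes SRM, spermidine synthase, and AMD1, S-adenosylmethionine decarboxylase, changed by -1.82 ± 0.20 and -1.02 ± 0.08.

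Genes of fatty acid synthesis moved in both directions. ELOVL7, an elongase of long fatty acids, stood at 5.31, 6.19 and 10.4 CPM in growth medium and 173, 168 and 184 CPM in MK medium, a change of 4.58 ± 0.27 (adjusted p = 4.0e-07). ELOVL6, which elongates palmitate, moved the other way, at 132, 132 and 108 CPM in growth medium and 36.9, 37.4 and 29.4 CPM in MK medium, a change of -1.84 ± 0.16. SCD, the stearoyl-CoA desaturase, changed by -1.32 ± 0.23 and ACLY, which supplies acetyl-CoA for synthesis, by -1.13 ± 0.15. ACSL4, which loads arachidonate onto coenzyme A, stood at 109, 98.7 and 63.5 CPM in growth medium and 253, 272 and 326 CPM in MK medium, a change of 1.65 ± 0.19. Over the synthesis list 7 of 19 rose and 9 fell.

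For fatty acid oxidation, 8 of 25 rose and 3 fell. With the replicate number as a block, 8 rose and 5 fell. There were 5 fallers without MK replicate 1. ACADVL, the very long chain acyl-CoA dehydrogenase, stood at 208.6, 211 and 198 CPM in growth medium and 488, 497 and 519 CPM in MK medium, a change of 1.28 ± 0.06. PPARGC1B, a coactivator of oxidative genes, changed by 1.35 ± 0.09, and CPT1A, the gate of fatty acid entry into mitochondria, by -1.15 ± 0.17. Uptake and storage genes had 8 of 29 (27.6%) higher and 7 (24.1%) lower, near the 30.5% and 28.4% of all tested genes. A fit with a replicate block gave 13 higher and 7 lower. There were 5 risers without growth replicate 1 and 5 without MK replicate 3, and 4 fallers without growth replicate 3. LPL, lipoprotein lipase, stood at 21.9, 19.9 and 13.99 CPM in growth medium and 4.40, 3.98 and 1.202 CPM in MK medium, a change of -2.54 ± 0.44. FABP5, a fatty acid carrier, changed by -2.25 ± 0.20, and PLIN5, a lipid droplet protein, by 2.38 ± 0.28.

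Enzymes of signalling lipids moved in both directions. PTGS1, the cyclooxygenase of platelets, stood at 14.8, 16.2 and 42.1 CPM in growth medium and 234, 236 and 454 CPM in MK medium, a change of 3.66 ± 0.52. TBXAS1, thromboxane synthase, which acts on its product, changed by 1.84 ± 0.24. PTGS2, the inducible cyclooxygenase, had 0 reads in growth medium and 0.167, 0.256 and 7.61 CPM in MK medium and did not pass the test (adjusted p = 0.056, or 4.5e-05 with the replicate block). The eicosanoid list had 6 of 19 (31.6%) higher and 5 (26.3%) lower, near the 30.5% and 28.4% of all tested genes. There were 3 risers without MK replicate 3, and 2 fallers without growth replicate 2 and 3 without MK replicate 3. In the sphingolipid list 7 of 23 (30.4%) rose and 5 (21.7%) fell, the risers at the share of all tested genes. SGMS2, a sphingomyelin synthase, stood at 0.281, 0.213 and 0.339 CPM in growth medium and 7.22, 6.20 and 42.9 CPM in MK medium, a change of 6.07 ± 1.06 (4.76 from replicates 1 and 2 alone). SMPD1, the acid sphingomyelinase of lysosomes, changed by 1.45 ± 0.19, and SPHK1, which makes sphingosine 1-phosphate, by 1.10 ± 0.20.

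Antioxidant genes had 5 of 33 higher and 16 lower. MGST1, a membrane glutathione transferase, stood at 41.7, 42.8 and 34.6 CPM in growth medium and 8.81, 8.87 and 8.81 CPM in MK medium, a change of -2.17 ± 0.11 (adjusted p = 9.3e-08). SLC7A11, which imports cystine for glutathione, changed by -1.500 ± 0.17, and GSTO1, an omega-class transferase, was higher at 0.89 ± 0.11. Carbonic anhydrases, which interconvert carbon dioxide and bicarbonate, had 4 of 10 higher and 2 lower. There were 2 risers without growth replicate 1. CA9, a surface form known as a hypoxia-inducible gene, stood at 2.32, 2.43 and 0.136 CPM in growth medium and 22.7, 28.00 and 36.5 CPM in MK medium, a change of 4.15 ± 0.79 (3.41 from replicates 1 and 2 alone). CA1, the form abundant in red cells, stood at 17.02, 14.5 and 10.1 CPM in growth medium and 1.17, 0.739 and 0.321 CPM in MK medium, a change of -4.22 ± 0.42.

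Lysosomal and autophagy genes mostly rose. Of 40 lysosomal genes, 24 rose and 2 fell, with a median of 0.73. CTSL, the protease cathepsin L, stood at 87.1, 85.1 and 105.2 CPM in growth medium and 634, 691 and 2616 CPM in MK medium, a change of 3.83 ± 0.64 (2.94 from replicates 1 and 2 alone). IDS, which removes sulfate from heparan and dermatan sulfate, stood at 29.8, 31.1 and 53.9 CPM in growth medium and 243, 233 and 402 CPM in MK medium, a change of 2.94 ± 0.32. MANBA, beta-mannosidase, changed by 2.03 ± 0.18 and NEU1, the lysosomal sialidase, by 1.85 ± 0.23. The 2 fallers were the membrane protein genes LAMP1 and CLN3, at -0.36 ± 0.07 and -0.39 ± 0.11. Of 38 autophagy genes, 23 rose and 6 fell. CALCOCO1, an autophagy receptor, stood at 14.01, 12.8 and 14.8 CPM in growth medium and 105.3, 110.3 and 108 CPM in MK medium, a change of 2.96 ± 0.09 (adjusted p = 5.0e-09). OPTN, optineurin, changed by 3.21 ± 0.50 and SQSTM1, the receptor p62, by 2.11 ± 0.27.

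The machinery that makes ribosomes and charges transfer RNA fell. Of 41 nucleolar and rRNA synthesis genes, 0 rose and 38 fell, 26 of them by more than 2-fold, with a median of -1.09. FBL, the nucleolar RNA methyltransferase fibrillarin, stood at 344, 354 and 280.5 CPM in growth medium and 125, 132 and 86.2 CPM in MK medium, a change of -1.51 ± 0.19. MYBBP1A, a nucleolar regulator of rRNA transcription, changed by -1.46 ± 0.15 and LYAR, a nucleolar protein, by -1.76 ± 0.19. Of 37 aminoacyl-tRNA synthetases, 0 rose and 31 fell. YARS, the tyrosine enzyme, stood at 369, 390.3 and 343 CPM in growth medium and 141, 143 and 133 CPM in MK medium, a change of -1.40 ± 0.07 (adjusted p = 1.7e-07). SR and hnRNP splicing genes had 1 of 30 higher and 25 lower, with HNRNPDL at -1.09 ± 0.08.

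Most called genes of protein quality control were lower too. Among heat shock chaperones, 3 of 42 rose and 25 fell. HSPD1, the mitochondrial chaperonin, stood at 1543, 1510 and 1214 CPM in growth medium and 663, 669.9 and 421 CPM in MK medium, a change of -1.28 ± 0.18, while CRYAB, a small heat shock protein, stood at 2.76, 2.78 and 4.34 CPM in growth medium and 26.0, 23.8 and 66.2 CPM in MK medium, a change of 3.55 ± 0.50. Of 37 proteasome subunits 2 rose and 26 fell, with a median of -0.33. PSMB2, a core subunit, changed by -0.86 ± 0.11 and PSMD2, of the regulatory cap, by 0.39 ± 0.06.

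**Figure D3:**
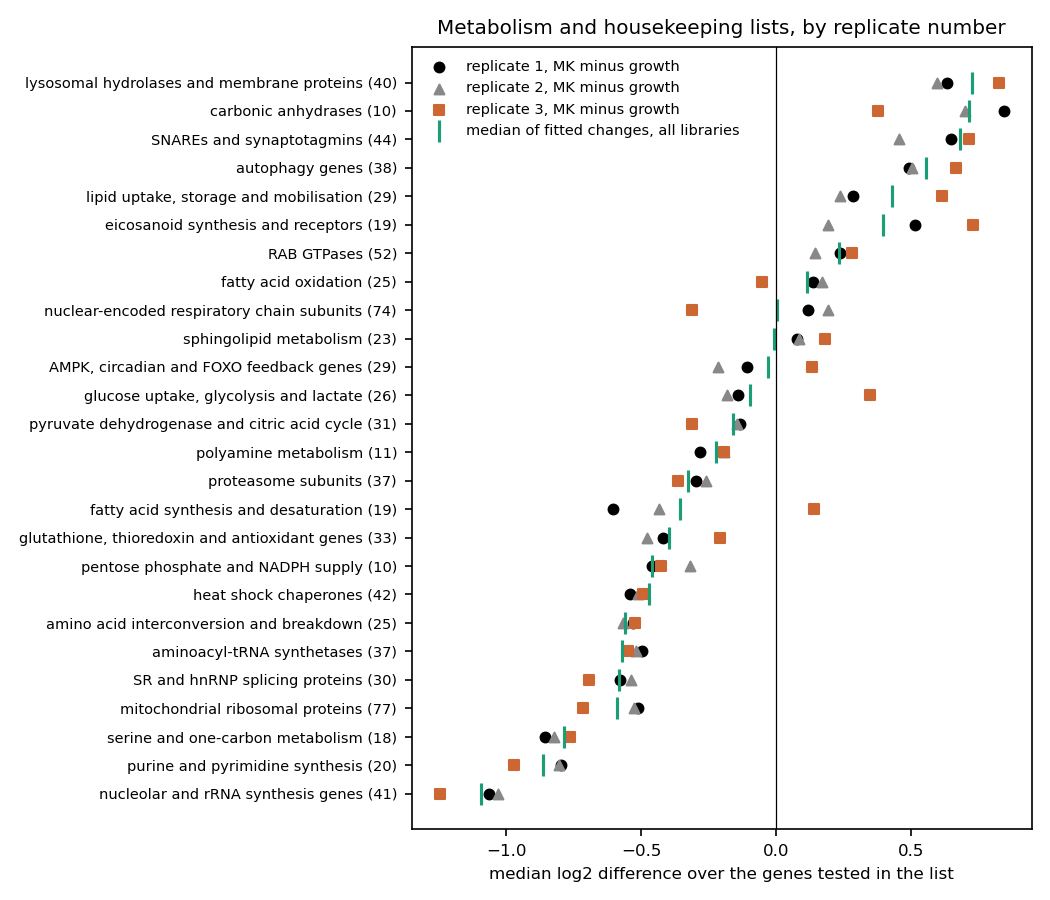
Median log2 difference, MK minus growth medium, over the tested genes of each metabolism and housekeeping list (number of genes in brackets), drawn for each replicate number, with a green bar at the median of the fitted changes. Nucleolar, nucleotide, one-carbon and mitochondrial ribosome lists lie below 0 and lysosomal and autophagy lists above 0 in all 3 pairs, and replicate 3 departs from the others for the respiratory chain, glycolysis and fatty acid synthesis.

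Promoters of these groups were searched for 6 short motifs on both strands, in the RefSeq promoter table of GRCh38.p14, which spans 250 bases before to 50 after each gene's start. The E-box CACGTG was in 9.66% of the 11288 promoters matched to tested genes and in 7.43% of all 27305 promoters of the table. It was in 128 of 702 promoters (18.2%) of genes that fell by more than 2-fold and in 135 of 2016 (6.70%) of those that rose by more than 2-fold. Nucleolar genes had it in 13 of 35 promoters (37.1%), and lysosomal genes, which rose, in 9 of 26 (34.6%). The AP-1 element TGANTCA was in 176 promoters (8.73%) of the risers and in 14 (1.99%) of the fallers. It was in 4.94% of the promoters of tested genes and in 7.76% of all 27305 promoters. The other motifs searched were the CLEAR element, which is the E-box flanked by GT and AC, the TEAD element CATTCC, the cAMP response element TGACGTCA and the TATA box TATAAA. The TATA box was in 202 of 2016 riser and 49 of 702 faller promoters (6.98%), against 728 of 11288 promoters of tested genes (6.45%) and 3264 of all 27305. A match describes letters in the window and is not a measured binding site.

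The stretches below show where the E-box lies in promoters of genes that fell (FBL, MYBBP1A, ATIC and LAMP1) and of NEU1, which rose, and where the AP-1 element lies in TNFSF15 and DCLK1, which had 0 reads in growth medium. Capitals mark the motif, and each stretch is written 5′ to 3′ along the gene. FBL lies at chr19:39846330-39846423, minus strand. MYBBP1A lies at chr17:4555335-4555407, minus strand. ATIC lies at chr2:215311963-215312068, plus strand. NEU1 lies at chr6:31862892-31862997, minus strand. LAMP1 lies at chr13:113296997-113297102, plus strand, and its whole promoter holds the E-box 6 times. TNFSF15 lies at chr9:114792594-114792700, minus strand, and DCLK1 at chr13:36131928-36132034, minus strand.
FBL: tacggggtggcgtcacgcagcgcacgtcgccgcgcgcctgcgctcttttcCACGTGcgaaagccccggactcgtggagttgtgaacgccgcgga
MYBBP1A: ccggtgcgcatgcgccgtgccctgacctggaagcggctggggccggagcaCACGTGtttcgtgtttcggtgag
ATIC: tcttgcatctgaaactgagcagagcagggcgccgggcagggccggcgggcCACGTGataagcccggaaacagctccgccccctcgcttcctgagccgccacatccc
NEU1: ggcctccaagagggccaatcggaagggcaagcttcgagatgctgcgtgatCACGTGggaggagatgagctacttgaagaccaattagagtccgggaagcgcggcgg
LAMP1: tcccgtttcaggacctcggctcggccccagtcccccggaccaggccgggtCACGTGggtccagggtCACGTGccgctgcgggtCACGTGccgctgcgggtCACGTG
TNFSF15: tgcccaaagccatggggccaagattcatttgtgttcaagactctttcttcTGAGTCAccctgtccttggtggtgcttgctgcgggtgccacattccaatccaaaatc
DCLK1: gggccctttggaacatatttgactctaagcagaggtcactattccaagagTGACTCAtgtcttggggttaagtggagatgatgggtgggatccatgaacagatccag

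Vesicle traffic genes leaned upward. Of 44 SNARE and synaptotagmin genes, 23 rose and 2 fell. There were 5 fallers without MK replicate 3. SYTL5, a synaptotagmin-like protein that binds RAB27, stood at 0.561, 0.699 and 0.633 CPM in growth medium and 44.2, 47.8 and 49.3 CPM in MK medium, a change of 6.21 ± 0.19 (adjusted p = 3.6e-09). SYT10, a synaptotagmin, was lower at -2.62 ± 0.41. RAB GTPases had 20 of 52 higher and 5 lower. Blocked by replicate number, the counts were 21 higher and 8 lower. RAB13 stood at 70.5, 70.4 and 74.8 CPM in growth medium and 217, 221 and 267 CPM in MK medium, a change of 1.71 ± 0.10. In the list of AMPK, circadian and FOXO feedback genes 11 of 29 rose and 10 fell, among them ARRDC4, an arrestin-like protein, at 2.52 ± 0.18, and the clock gene PER2, at -1.63 ± 0.15.

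Most called receptor kinases were higher in MK medium. Of 33 tested receptor tyrosine kinases, 17 rose and 3 fell. FLT1, a VEGF receptor, stood at 0.663, 0.447 and 0.701 CPM in growth medium and 95.1, 111 and 155 CPM in MK medium, a change of 7.65 ± 0.27 (adjusted p = 1.0e-08). AXL, the GAS6 receptor, stood at 3.90, 4.64 and 9.04 CPM in growth medium and 141, 152 and 219.6 CPM in MK medium, a change of 4.86 ± 0.43. For these receptors no MK library came near a growth library, and the rule for naming genes required that they not overlap. TIE1, a receptor of the angiopoietin system, changed by 7.05 ± 1.43 and was highest in MK replicate 3. EGFR had 1 read over the growth libraries and 2.40, 1.08 and 14.98 CPM in MK medium, or 852-fold (95% interval 152 to 33700, and 236-fold, 41.5 to 9375, without MK replicate 3). FGFR4, a fibroblast growth factor receptor, fell, from 29.8, 27.7 and 22.1 CPM to 5.04, 6.11 and 4.97 CPM, a change of -2.31 ± 0.18. EPHB4, an ephrin receptor, changed by -1.35 ± 0.18.

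G protein-coupled receptors had 67 of 154 higher and 24 lower. GPR4, a proton-sensing receptor, stood at 0, 0.0194 and 0.226 CPM in growth medium and 10.5, 11.4 and 88.5 CPM in MK medium, a change of 8.76 ± 1.505 (9.60 from replicates 1 and 2 alone). CCR7, a chemokine receptor of lymph node homing, stood at 0.893, 0.641 and 1.06 CPM in growth medium and 23.4, 21.7 and 115 CPM in MK medium, a change of 5.95 ± 0.89 (4.89 from replicates 1 and 2 alone). MK replicate 3 was the highest library for both. ADORA2B, an adenosine receptor, was lower at -1.79 ± 0.16. RGS proteins, which switch G proteins off, had 11 of 15 higher and 1 lower, with RGS20 at 3.44 ± 0.35 and RGS14 at -0.70 ± 0.16.

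Cyclic nucleotide enzymes had 13 of 27 higher and 4 lower, or 13 and 8 with replicates 1 and 2 alone. PDE2A, a phosphodiesterase stimulated by cGMP, stood at 1.17, 0.621 and 0.859 CPM in growth medium and 57.7, 67.1 and 74.6 CPM in MK medium, a change of 6.25 ± 0.23 (adjusted p = 1.3e-08). ADCY6, an adenylyl cyclase, stood at 0.434, 0.524 and 3.64 CPM in growth medium and 40.2, 35.2 and 19.5 CPM in MK medium, a change of 4.37 ± 0.89 (6.27 from replicates 1 and 2 alone). Protein kinase C and D genes had 4 of 10 higher and 2 lower. PRKCA, the alpha isozyme, stood at 95.9, 100.7 and 112 CPM in growth medium and 502, 518 and 408 CPM in MK medium, a change of 2.21 ± 0.14, and PRKCB, the beta isozyme, changed by 0.46 ± 0.08. Per length, PRKCB remained the higher of the pair, at 191 ± 15.9 FPKM against 55.4 ± 7.27 FPKM for PRKCA in MK medium (mean ± SD, n = 3).

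RAS and RAP regulators had 20 of 36 higher and 3 lower. The replicate block made this 21 higher and 5 lower. There were 6 fallers without MK replicate 3. RASGRP3, a RAS exchange factor that responds to diacylglycerol, stood at 0.255, 0.330 and 3.39 CPM in growth medium and 32.5, 31.2 and 90.8 CPM in MK medium, a change of 5.28 ± 1.09 (6.72 from replicates 1 and 2 alone). RAPGEF5, a RAP exchange factor, stood at 2.19, 2.74 and 2.76 CPM in growth medium and 19.1, 20.9 and 22.2 CPM in MK medium, a change of 3.01 ± 0.17. RASAL1, a RAS GTPase activator, was at 3.85, 4.38 and 17.2 CPM in MK medium, or 583-fold (95% interval 161 to 4818, and 277-fold, 76.1 to 2300, without MK replicate 3) above growth medium. Tyrosine phosphatases had 12 of 28 higher and 3 lower. PTPRN, a receptor-like phosphatase of neuroendocrine secretory vesicles, stood at 0.408, 0.699 and 1.58 CPM in growth medium and 84.8, 94.9 and 125 CPM in MK medium, a change of 6.81 ± 0.37. PTPRM, a homophilic receptor phosphatase, was 658-fold (95% interval 301.7 to 1793, and 366-fold, 167 to 998, without MK replicate 3) higher. In the PI3 kinase and mTOR list 12 of 29 rose and 11 fell, including INPPL1, the lipid phosphatase SHIP2, at 1.98 ± 0.13, and the catalytic subunit gene PIK3CD at -1.12 ± 0.19. Among calcium genes 17 of 36 rose and 6 fell, with the calcium pump ATP2A3 at 1.54 ± 0.19 and the release channel RYR1 at -1.06 ± 0.15.

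More genes were higher than lower among YAP and TEAD, hypoxia and p53 targets and in the TGF-beta pathway list. Of 20 YAP and TEAD targets, 17 rose and 1 fell, with a median of 2.40. In the TGF-beta, activin and BMP list 25 of 52 rose and 6 fell, with a median of 0.79 that was 0.37 without replicate 3. SMAD7, the feedback inhibitor of that pathway, stood at 1.76, 1.80 and 3.37 CPM in growth medium and 32.05, 30.5 and 74.96 CPM in MK medium, a change of 4.31 ± 0.54. MK replicate 3 was its highest library. Hypoxia-inducible factor targets had 11 of 26 higher and 1 lower, and 7 lower with replicates 1 and 2 alone. NDRG1, a stress-induced gene of that list, stood at 2.50, 4.601 and 6.15 CPM in growth medium and 114, 139.5 and 351 CPM in MK medium, a change of 5.50 ± 0.60. ANGPTL4, a secreted lipase inhibitor, changed by 5.84 ± 1.08 (4.34 from replicates 1 and 2 alone) and the repressor gene BHLHE40 by 2.50 ± 0.26.

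Of 24 p53 targets, 12 rose and 3 fell. BTG2, an antiproliferative gene, stood at 33.6, 28.5 and 62.7 CPM in growth medium and 316, 309 and 582 CPM in MK medium, a change of 3.27 ± 0.40, and TP53INP1 changed by 2.76 ± 0.48 (3.57 from replicates 1 and 2 alone). MDM2, which encodes the p53 ubiquitin ligase, was lower at -0.46 ± 0.11. K562 cells are known to lack functional p53. WNT genes leaned the other way, with 5 of 33 higher and 13 lower. There were 3 risers without growth replicate 1 and 3 without MK replicate 3. WNT5B, a ligand, stood at 6.02, 6.02 and 8.81 CPM in growth medium and 0.808, 0.995 and 1.07 CPM in MK medium, a change of -2.86 ± 0.34, and the receptor FZD4 changed by -1.43 ± 0.12. In the Notch list 11 of 25 rose and 6 fell. There were 3 fallers without MK replicate 1. JAG1, a ligand, stood at 0.357, 0.272 and 0.384 CPM in growth medium and 11.2, 10.97 and 34.2 CPM in MK medium, a change of 5.79 ± 0.72 (5.14 from replicates 1 and 2 alone). HEY1, a target gene, changed by 2.99 ± 0.14 and NRARP, a feedback inhibitor, by -1.33 ± 0.13.

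Most called genes of surface adhesion and recognition were higher. CD44, the hyaluronan receptor, stood at 1.28, 0.971 and 6.51 CPM in growth medium and 720.1, 764 and 2512 CPM in MK medium, a change of 8.84 ± 1.22 (adjusted p = 1.6e-04). Of 23 tetraspanins, 13 rose and 0 fell. TSPAN9, a platelet tetraspanin, stood at 1.505, 1.67 and 1.33 CPM in growth medium and 32.6, 34.4 and 75.8 CPM in MK medium, a change of 4.98 ± 0.40 (4.38 from replicates 1 and 2 alone), TSPAN5 changed by 4.34 ± 0.41 and CD9 by 4.19 ± 1.12 (5.20 from replicates 1 and 2 alone). EPHB6, an ephrin receptor with an inactive kinase, stood at 26.5, 22.5 and 50.8 CPM in growth medium and 1969, 1962 and 2691 CPM in MK medium, a change of 6.05 ± 0.41 (adjusted p = 1.5e-06). SEMA7A, a membrane-anchored semaphorin, changed by 3.07 ± 0.47 (2.36 from replicates 1 and 2 alone), and SLIT2, a secreted guidance ligand, was lower at -2.42 ± 0.35. Semaphorins, plexins and ephrins together had 24 of 44 higher and 6 lower. Cadherins and protocadherins had 19 of 43 higher and 1 lower, the PCDHG cluster among them sharing exons that leave single counts uncertain. With the replicate number as a block, 22 rose and 5 fell. There were 12 risers without growth replicate 2 and 11 without MK replicate 3.

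Immune ligands and receptors rose in part. Immunoglobulin family adhesion and checkpoint ligands had 20 of 38 higher and 2 lower. There were 4 fallers without MK replicate 3. CD276, the ligand B7-H3, stood at 2.45, 3.16 and 5.63 CPM in growth medium and 33.6, 29.8 and 180.1 CPM in MK medium, a change of 4.43 ± 0.89 (3.48 from replicates 1 and 2 alone), and CD80, the ligand B7-1, was lower at -1.58 ± 0.28. In the MHC list 16 of 25 rose and 1 fell, with HLA genes uncertain for their shared sequence. There were 8 risers without growth replicate 1, 10 without growth replicate 2 and 9 without MK replicate 3. HLA-E stood at 40.98, 41.3 and 50.8 CPM in growth medium and 104.7, 100.8 and 309.7 CPM in MK medium, a change of 1.95 ± 0.50 (1.31 from replicates 1 and 2 alone), and ULBP2, a stress ligand of NKG2D, changed by 2.96 ± 0.71. TNF receptors and ligands had 20 of 32 higher and 2 lower. There were 13 risers without growth replicate 1 and 12 without MK replicate 3. TNFRSF12A, the TWEAK receptor, stood at 13.6, 12.9 and 12.6 CPM in growth medium and 49.4, 49.3 and 83.00 CPM in MK medium, a change of 2.21 ± 0.21. TNFRSF8, which encodes CD30, stood at 47.4, 52.8 and 49.99 CPM in growth medium and 5.99, 4.604 and 14.3 CPM in MK medium, a change of -2.59 ± 0.46 (-3.24 from replicates 1 and 2 alone).

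Cytokine receptors had 27 of 47 higher and 3 lower. IL7R, the interleukin 7 receptor, stood at 0, 0.194 and 0.0904 CPM in growth medium and 15.5, 13.8 and 43.7 CPM in MK medium, a change of 7.86 ± 0.97 (7.02 from replicates 1 and 2 alone), and IL6R, the interleukin 6 receptor, changed by 5.96 ± 0.71. IL13RA2, a decoy receptor for interleukin 13, was at 32.7, 34.2 and 229.7 CPM in MK medium, or 1707-fold (95% interval 866 to 3955, and 564-fold, 286 to 1309, without MK replicate 3) higher. LEPR, the leptin receptor, stood at 251, 232 and 185 CPM in growth medium and 81.9, 88.6 and 53.8 CPM in MK medium, a change of -1.57 ± 0.19. Lectin and Siglec genes had 23 of 39 higher and 4 lower, with SIGLEC9 at 6.85 ± 1.09 (6.24 from replicates 1 and 2 alone). There were 2 fallers without growth replicate 2, 2 without MK replicate 1 and 2 without MK replicate 2. Glycosyltransferases had 20 of 60 higher and 12 lower, and GALNT2, which starts O-glycans, changed by -1.11 ± 0.06.

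Transporters moved both ways. Of 241 solute carriers, 83 (34.4%) rose and 62 (25.7%) fell, near the 30.5% and 28.4% of all tested genes. SLCO2B1, an organic anion carrier, stood at 7.63, 7.32 and 17.7 CPM in growth medium and 138, 136 and 181 CPM in MK medium, a change of 3.80 ± 0.38, and the chloride carrier SLC26A9 changed by 6.99 ± 0.69 (7.99 from replicates 1 and 2 alone). SLC7A5, the large neutral amino acid carrier LAT1, changed by -1.57 ± 0.26. SLC40A1, the iron exporter ferroportin, stood at 71.3, 68.3 and 73.6 CPM in growth medium and 13.5, 15.01 and 8.63 CPM in MK medium, a change of -2.52 ± 0.22. All MK libraries lay below all growth libraries for both of these carriers, as the rule for naming genes required. ABC transporters had 13 of 33 higher and 6 lower. ABCB1, the drug efflux pump P-glycoprotein, stood at 0.740, 0.427 and 5.72 CPM in growth medium and 267, 276.4 and 272 CPM in MK medium, a change of 6.89 ± 1.01 (8.90 from replicates 1 and 2 alone). ABCC3, another efflux pump, stood at 0.255, 0.369 and 0.158 CPM in growth medium and 35.8, 39.4 and 33.8 CPM in MK medium, a change of 7.08 ± 0.32, and the cholesterol exporter ABCA1 changed by 6.61 ± 0.81 (7.23 from replicates 1 and 2 alone).

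Ion channels had 45 of 113 higher and 13 lower. TRPV6, an epithelial calcium channel, stood at 0.918, 1.07 and 1.13 CPM in growth medium and 184, 179.5 and 241 CPM in MK medium, a change of 7.59 ± 0.20 (adjusted p = 3.0e-09). KCNQ5, a voltage-gated potassium channel, changed by -2.29 ± 0.29 and KCNN4, a calcium-activated one, by -1.73 ± 0.23. Surface enzymes had 15 of 29 higher and 4 lower. ACE, the angiotensin-converting enzyme, stood at 1.12, 1.30 and 1.97 CPM in growth medium and 201, 198 and 139.9 CPM in MK medium, a change of 6.93 ± 0.33. ADAM28, a membrane metalloprotease, had 0 reads in growth medium and 26.9, 32.9 and 34.2 CPM in MK medium, at least 1410-fold higher. NT5E, the AMP phosphatase CD73, also had 0 reads and reached 3.96, 6.03 and 94.2 CPM, at least 1609-fold higher (or 224-fold without MK replicate 3), most of it in MK replicate 3.

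**Figure D4:**
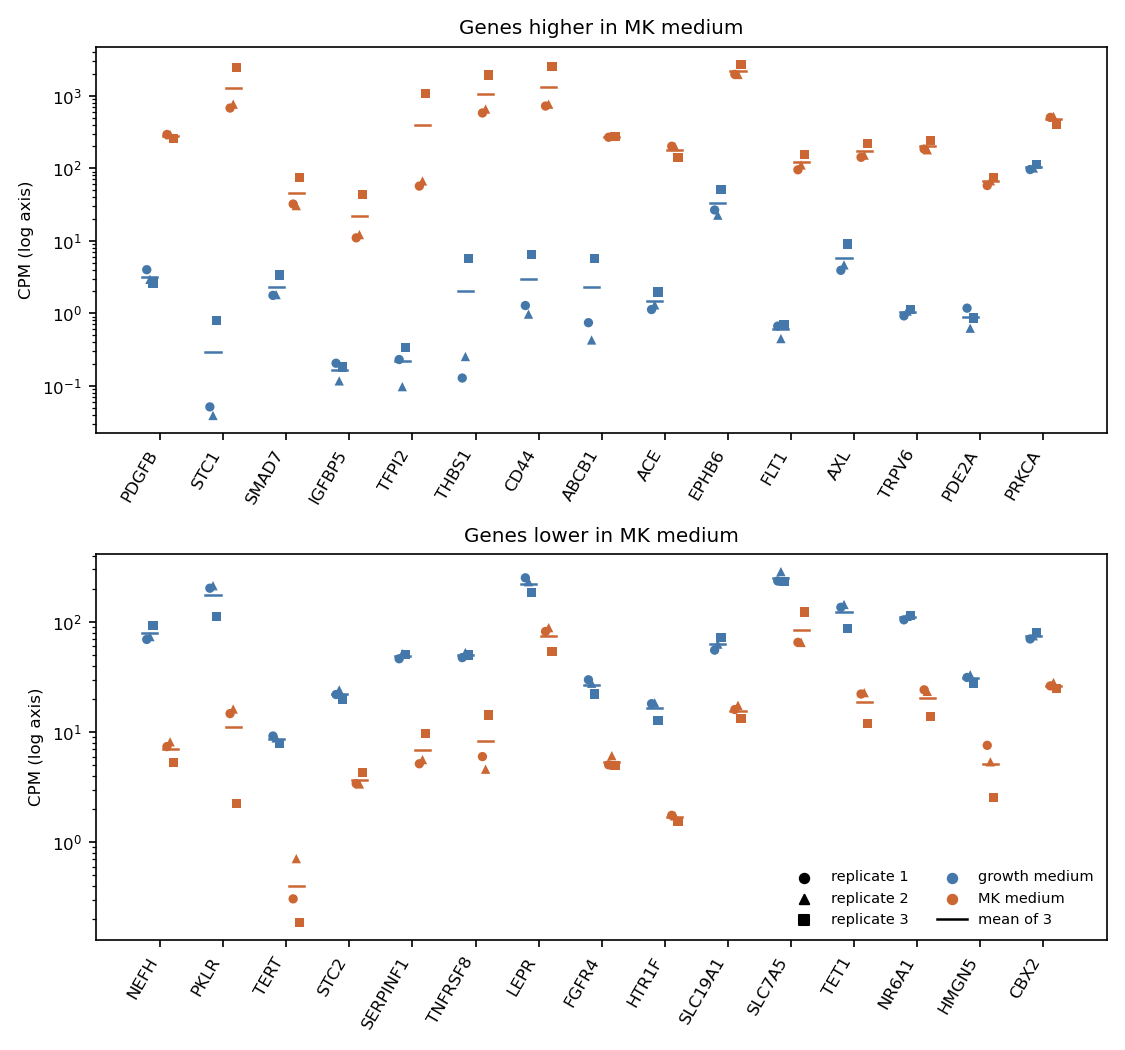
CPM on a log axis in the 3 growth medium (blue) and 3 MK medium (orange) libraries for genes that were higher (upper panel) or lower (lower panel) in MK medium, with a mark for each replicate and a bar at the mean. MK replicate 3 is the highest library for STC1, SMAD7, TFPI2, THBS1 and CD44.

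Called genes of secreted growth factors and cytokines were mostly higher. Of 44 growth factor genes, 20 rose and 4 fell, or 21 and 9 with replicates 1 and 2 alone. PDGFB, the B chain of platelet-derived growth factor, stood at 3.98, 2.93 and 2.60 CPM in growth medium and 292, 289.5 and 259 CPM in MK medium, a change of 6.47 ± 0.22 (adjusted p = 9.5e-09). PDGFA, the A chain, stood at 7.86, 5.46 and 5.58 CPM in growth medium and 73.2, 77.6 and 133.6 CPM in MK medium, a change of 3.92 ± 0.31. CSF1, the macrophage colony-stimulating factor, changed by 2.40 ± 0.48, and HDGF, a nuclear protein also found outside cells, was lower at -0.95 ± 0.15. Interleukins and related cytokines had 15 of 24 higher and 1 lower. Chemokines had 14 of 19 higher and 1 lower. The 5 called genes among 6 tested IGF-binding proteins all rose, with IGFBP5 at 0.204, 0.117 and 0.181 CPM in growth medium and 10.9, 12.1 and 43.3 CPM in MK medium, a change of 7.04 ± 0.93 (6.19 from replicates 1 and 2 alone).

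Most called protease, inhibitor and matrix genes were higher. Secreted proteases and their inhibitors had 29 of 40 higher and 1 lower. TFPI2, a Kunitz inhibitor of plasmin, stood at 0.230, 0.0971 and 0.339 CPM in growth medium and 56.7, 66.7 and 1065 CPM in MK medium, a change of 10.82 ± 1.86 (8.61 from replicates 1 and 2 alone). TIMP4, an inhibitor of metalloproteases, changed by 7.20 ± 0.90 (8.84 from replicates 1 and 2 alone). Serpins had 9 of 15 higher and 1 lower. SERPINB2, which encodes the plasminogen activator inhibitor PAI-2, stood at 0, 0.0971 and 0.226 CPM in growth medium and 13.7, 13.9 and 100.3 CPM in MK medium, a change of 8.55 ± 1.42 (7.89 from replicates 1 and 2 alone). SERPINF1, the anti-angiogenic factor PEDF, went the other way, at 46.3, 51.5 and 50.5 CPM in growth medium and 5.16, 5.63 and 9.75 CPM in MK medium, a change of -2.85 ± 0.25. Matricellular and proteoglycan genes had 25 of 35 higher and 3 lower. THBS1, the platelet granule protein thrombospondin 1, stood at 0.128, 0.252 and 5.70 CPM in growth medium and 578, 655 and 1924 CPM in MK medium, a change of 9.02 ± 1.45 (11.58 from replicates 1 and 2 alone). ECM1, a matrix glycoprotein, changed by 2.65 ± 0.41.

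STC2, the paralogue of STC1, fell while STC1 rose, from 21.9, 24.1 and 19.8 CPM to 3.40, 3.38 and 4.30 CPM, a change of -2.57 ± 0.20. Neuropeptides and granins had 10 of 15 higher and 3 lower. VGF, a granin-like precursor, stood at 1.61, 1.15 and 2.01 CPM in growth medium and 21.6, 25.3 and 103 CPM in MK medium, a change of 4.98 ± 0.78 (4.11 from replicates 1 and 2 alone), and TAC3, the neurokinin B precursor, changed by 4.39 ± 0.59 (5.51 from replicates 1 and 2 alone). PCSK1, a convertase that cuts such precursors, had 0 reads in growth medium and 2.73, 4.12 and 34.7 CPM in MK medium, at least 639-fold higher (or 154-fold without MK replicate 3). Complement and coagulation genes had 18 of 27 higher and 2 lower, CFD, complement factor D, being lower at -1.88 ± 0.22. S100 proteins and galectins had 10 of 18 higher and 2 lower, with S100A16 at 0.918, 1.48 and 3.59 CPM in growth medium and 85.6, 85.5 and 187 CPM in MK medium, a change of 5.89 ± 0.60. Among cytotoxic granule genes 6 of 10 rose and 1 fell, including LYST, a regulator of granule size, at 2.41 ± 0.19, and SERPINB9, the inhibitor of granzyme B, at 1.76 ± 0.07.

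Chromatin genes moved in both directions. DNA methylation genes had 7 of 17 higher and 5 lower. TET1, a methylcytosine dioxygenase, stood at 136, 144 and 87.3 CPM in growth medium and 22.2, 22.8 and 11.9 CPM in MK medium, a change of -2.69 ± 0.31, whereas TET3 changed by 0.90 ± 0.08. DNMT3B, a de novo methyltransferase, stood at 251, 271 and 199 CPM in growth medium and 90.8, 90.4 and 64.7 CPM in MK medium, a change of -1.55 ± 0.16. MBD4, a glycosylase that binds methylated CpG, stood at 67.9, 69.8 and 80.4 CPM in growth medium and 276.5, 284 and 273 CPM in MK medium, a change of 1.93 ± 0.08 (adjusted p = 4.0e-08).

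Polycomb genes had 7 of 34 higher and 14 lower, with opposite changes within the CBX family. CBX2 stood at 69.99, 74.8 and 80.1 CPM in growth medium and 26.2, 28.2 and 24.9 CPM in MK medium, a change of -1.503 ± 0.09, and CBX7 at 5.92, 6.13 and 6.87 CPM in growth medium and 16.6, 14.4 and 19.01 CPM in MK medium, a change of 1.40 ± 0.15. Per length, CBX2 went from 27.5 ± 3.05 FPKM to 10.1 ± 0.678 FPKM and CBX7 from 1.55 ± 0.195 FPKM to 4.26 ± 0.568 FPKM (mean ± SD, n = 3). EZH2, the methyltransferase of Polycomb complex PRC2, changed by -1.02 ± 0.19 and PHC2, a PRC1 subunit, by 1.54 ± 0.23. Histone lysine methyltransferases had 5 of 42 higher and 23 lower, the riser PRDM1, which encodes the repressor BLIMP1, being at 2.99 ± 0.49. Demethylases had 8 of 26 (30.8%) higher and 7 (26.9%) lower, near the 30.5% and 28.4% of all tested genes. There were 5 risers without growth replicate 3. KDM6B, an H3K27 demethylase, was called higher (log2 0.93 ± 0.28), with adjusted p of 0.058 to 0.07 without replicate 3 of either medium.

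Called acetylation and remodelling genes were mostly lower. Acetyltransferases and bromodomain readers had 4 of 29 higher and 15 lower, none of them past 2-fold. Deacetylases and sirtuins had 4 of 18 higher and 4 lower, with HDAC5, a class IIa deacetylase, at 40.1, 45.1 and 43.03 CPM in growth medium and 146, 133 and 115 CPM in MK medium, a change of 1.62 ± 0.13. The mitochondrial SIRT3 changed by 1.05 ± 0.11 and the nuclear SIRT1 by -0.67 ± 0.09. SWI/SNF subunits had 2 of 25 higher and 13 lower. The 2 risers were the alternative subunits DPF3, at 1.59 ± 0.23, and SMARCD3, at 1.44 ± 0.25. PHF10, the subunit of the PBAF form, stood at 76.8, 81.1 and 52.4 CPM in growth medium and 13.6, 10.5 and 31.1 CPM in MK medium, a change of -1.93 ± 0.43 (-2.71 from replicates 1 and 2 alone). Remodelling subunits of the CHD, ISWI, INO80 and NuRD families had 7 of 33 higher and 15 lower, with the INO80 helicase RUVBL1 at -1.13 ± 0.15. Histone chaperones and HMG proteins had 3 of 32 higher and 22 lower. A fit with a replicate block gave 5 higher and 23 lower. There were 6 risers without MK replicate 3. HMGB1, an abundant DNA-bending protein, stood at 679, 675 and 637 CPM in growth medium and 301, 286 and 233 CPM in MK medium, a change of -1.28 ± 0.10, and HMGN5, a nucleosome-binding protein, changed by -2.57 ± 0.32.

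Transcription factor families moved in both directions. ZNF-named zinc finger genes had 124 of 455 (27%) higher and 90 (20%) lower, against 30.5% and 28.4% of all tested genes. ZBTB genes had 13 of 39 higher and 7 lower. ZBTB38, a methyl-CpG-binding repressor, stood at 89.0, 98.2 and 70.8 CPM in growth medium and 291, 313 and 475 CPM in MK medium, a change of 2.06 ± 0.21. KLF and SP factors had 6 of 23 (26.1%) higher and 7 (30.4%) lower, near the shares of all tested genes. There were 3 risers without MK replicate 3. SP6, a member known from epithelia, stood at 8.24, 7.49 and 20.5 CPM in growth medium and 365, 406 and 684 CPM in MK medium, a change of 5.33 ± 0.50 (adjusted p = 1.4e-05). Nuclear receptors had 12 of 32 higher and 8 lower. VDR, the vitamin D receptor, changed by 2.29 ± 0.41 (1.56 from replicates 1 and 2 alone) and THRA, a thyroid hormone receptor, by -1.47 ± 0.12. NR6A1, an orphan receptor of germ cells, stood at 104, 112 and 114 CPM in growth medium and 24.2, 23.4 and 13.9 CPM in MK medium, a change of -2.43 ± 0.17. In the HOX, FOX and SOX list 10 of 53 rose and 12 fell, including SOX5 at -1.93 ± 0.23 and FOXM1, a factor of dividing cells, at -1.04 ± 0.10.

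The same medium comparison was made in the libraries labelled siRHOB. Of the 8256 genes called with siNC, 7697 (93.2%) were called in the same direction there. The share of all tested genes called with siRHOB is not given here. Both comparisons came from the same fit of 12 libraries and share its estimate of the spread. Replicate 3 stood apart with siRHOB too, with correlations of 0.981 to 0.983 in growth medium and 0.967 to 0.972 in MK medium. RHOB itself was at 6.20, 4.68 and 1.42 CPM with siNC and at 3.17, 3.30 and 0.466 CPM with siRHOB in growth medium, lower within each replicate number. In MK medium it was at 12.9, 10.2 and 32.7 CPM with siNC and at 12.6, 15.5 and 22.1 CPM with siRHOB, so that the groups overlapped. A test of the difference in medium effect between the siRNAs called 0 genes with edgeR, DESeq2 and limma, and 106 genes had an unadjusted p under 0.05 with edgeR. That test does not show that the arms responded alike. PDGFB, FLT1 and TRPV6 stood among the genes called higher with both siRNAs, and TERT, NR6A1 and PFAS among those called lower.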

How the data were processed

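RNA was measured by sequencing of polyT-purified, fragmented RNA from K562 cells, per the labels' protocols. The authors deposited read counts per gene symbol for 19225 genes and a table of FPKM values, 1 column a library, and 0 columns were left unmatched to a sample. HISAT2 2.2.1, featureCounts 2.0.2, edgeR and GRCh37.p13 are named per the submitters' processing notes, without roles. The sources used here give no strand or multi-mapping settings, so near-identical copies and genes that overlap on opposite strands are uncertain. The deposited FPKM equalled count over a fixed length and column total in all 17397 genes with reads (relative tolerance 1e-06). The 58 list members found under an older symbol were matched through it.

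Counts were tested with edgeR 4.0.16 (quasi-likelihood F test, two-sided, robust, TMM scaling, filterByExpr) with limma 3.58.1 in R 4.3.3. All 12 libraries entered a fit of 4 group means, and the threshold was a Benjamini-Hochberg adjusted p of 0.05. CPM values are TMM-scaled. The SE of a log2 change is its size divided by the root of F. Lower bounds used 3 reads over a group, and ratios of genes with few reads carry exact 95% intervals (Clopper-Pearson). Intervals and bounds cover counting error only. The steps were tested on simulated data.

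Named genes were the 12 largest rises and falls outside the lineage, cell cycle and cytoskeleton lists and up to 4 in each direction from each list. They had to pass the test, show no overlap between libraries and average 5 CPM or more in the medium where they were higher. Fixed isozyme sets and K562 identity genes were added, and some named genes are left out for length or are not reported here. LAMP1, CLN3, RHOB and the markers of other cells lie outside the rule: LAMP1 and CLN3 were named because they are the 2 fallers of their list, RHOB as the target of the other siRNA, and the markers as called or abundant members of their lists or members at 0. The comparison, the lists and the rule were chosen with earlier results of these data known. The main fit did not pair libraries by replicate number. Replicate numbers paired the samples in the replicate block and in the medians per replicate pair. Deviations of same-numbered libraries from their group means correlated at 0.151 to 0.834 over all pairs of groups. In the siNC libraries they correlated at 0.205 to 0.340. Alternatives covered scaling, filters, DESeq2 1.42.0, limma on log2(FPKM + 1) and log2(FPKM + 0.1), the 6 siNC libraries alone, a replicate block, a test against 1.5-fold and each library left out. Promoter sequences came from RefSeq (GRCh38.p14), and no coordinates of GRCh37 were used.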

Additional observations from a re-analysis of the deposited data

How the results depend on the processing

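The counts of genes called higher (4278) and lower (3978), and of genes past 2-fold (2668 and 878), stayed within 1.5 times under the alternatives of scaling, filtering, DESeq2 and the 6 siNC libraries alone. A test against 1.5-fold with edgeR's glmTreat left 2413 genes higher and 1273 lower. With limma on log2(FPKM + 1), 1263 genes were more than 2-fold higher and 494 more than 2-fold lower, on a scale that understates the change of low genes. Leaving out each library in turn gave 3588 to 4155 genes higher and 3488 to 3968 lower, with 2235 to 2702 and 797 to 962 past 2-fold. In the paired fit with a replicate block 4867 genes were higher and 4463 lower, 2887 and 933 of them past 2-fold, and 8242 of the 8256 calls were made the same way. Replicates 1 and 2 alone gave 4888 higher and 4686 lower. Upper quartile scaling moved the median over all genes from 0.06 to 0.13 and gave 4676 higher and 3475 lower. No direction of a called named gene reversed. Of 555 tested named genes, 508 kept their side of the threshold without MK replicate 3, 41 lost the call and 6 gained it. In all, 58 of the 529 called named genes lost the call in at least 1 of the fits without a library. The medians of 4 lists changed sign with DESeq2's scaling, among them sphingolipid and PI3 kinase genes, whose medians lay near 0. Over 83 lists, medians moved by -1.43 to 0.75 with replicates 1 and 2 alone, where those of receptor tyrosine kinases went from 2.13 to 0.70 and of RGS proteins from 2.44 to 1.10. They moved by -1.48 to 0.14 without MK replicate 3, by -1.6 to 1.42 under a filter of at least 1 CPM and by -3.13 to 0.14 with limma on log2(FPKM + 1), where 51 of 83 moved beyond the SD over the replicate pairs. The median of secreted genes, 1.93, was 1.41 without MK replicate 3. In the check with bounds, only the median of the IGF-binding proteins moved by more than 0.1, when genes with under 3 reads in a medium were set to their bound, from 4.07 to 3.91. Depth limits the folds of genes near 0 reads in growth medium.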
